A study of Mus musculus with 4 samples.

Results

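The genes described here carry glucose into the cell and break it down to lactate: the glucose transporter Slc2a1 and the enzymes Hk1, Hk2, Gpi1, Pfkl, Pfkp, Aldoa, Pgk1, Pkm and Ldha. They were looked up by symbol among the microarray probe sets that carry exactly 1 gene symbol, and the brightest one by mean log2 over the arrays stood for each gene. Of the 10 genes listed, 9 were found, among 18193 genes named on the arrays. Gpi1, the isomerase between the first 2 kinase steps, had no probe set named for it alone and was not analysed here. The study, titled for the secreted protein Cthrc1 and the coupling of bone resorption to bone formation, measured total RNA on 4 Affymetrix-type arrays, 1 for each stage of osteoclast formation in culture. All cells came from the femur and tibia marrow of C57BL/6 mice of 8 to 10 weeks. BMM were bone marrow macrophages obtained after 3 days in M-CSF, the macrophage growth factor, at 100 ng/ml, and had received no RANKL. For pOC, mononuclear pre-osteoclasts positive for the osteoclast enzyme TRAP, BMM were kept 2 more days with M-CSF and the osteoclast-inducing cytokine RANKL, each at 100 ng/ml. Multinucleated osteoclasts formed from these during 2 further days with both cytokines, on plastic for mOCp and on slices of dentin for mOCd, where they resorb. Every group was thus in M-CSF. The labels do not say whether animals were pooled or how TRAP-positive cells were separated from others.

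In glycolysis, glucose enters through facilitated transporters, is trapped by hexokinase as a phosphate, and is committed at phosphofructokinase, whose product aldolase splits into 2 triose phosphates. Phosphoglycerate kinase and pyruvate kinase then yield ATP, and lactate dehydrogenase turns pyruvate into lactate while restoring the NAD that the pathway consumes. Most steps have several isoforms encoded by separate genes, and many of these genes are known targets of the hypoxia-inducible factors and of Myc. Osteoclasts are rich in mitochondria and also use glycolysis, and RANKL-driven differentiation is known to raise glucose use.

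With 1 array per stage there were no replicates, so no test, standard error or p-value applies, and the spread between animals or cultures was not measured. The deposited intensities had the same trimmed mean, 100.0, on every array, so a difference in total mRNA between stages does not show, and in such bulk RNA fewer cells of a type cannot be told apart from less RNA per cell. On each array, intensities under the 50th percentile were set to that percentile, between 12.7 and 15.8. A gene was called higher or lower where its 2 values differed by at least 2-fold and the brighter one reached the 75th percentile of its array, between 77.8 and 87.0. The only guide to measurement error was how far probe sets of one gene disagreed, an SD of 0.38 on the log2 scale for pOC against BMM and for mOCp against pOC, 0.50 for mOCd against pOC and 0.42 for mOCd against mOCp. The stage labels were compared with marker genes. The summed intensity of 11 osteoclast markers was 255.1 in BMM and 33771.7 in pOC, then 52180.6 in mOCp and 53526.0 in mOCd, with 5 of 11 above the floor in BMM and 11 of 11 on each later array. That of 11 macrophage markers was 29223.2, 11734.7, 20202.3 and 16672.4 in the same order. Most of it on the later arrays came from Cd68 (5096.2 in pOC, 8622.9 in mOCp, 7367.1 in mOCd) and Csf1r (4898.6, 7511.7 and 7644.1), while the other 9 were called lower in pOC than in BMM. Of 8 neutrophil markers the sum was 323.5, 841.8, 1886.1 and 968.6, that of 9 stromal and osteoblast markers lay between 71.3 and 308.7, and no erythroid (4) or lymphoid (7) marker reached the 75th percentile on any array. The macrophage and neutrophil sums were higher in mOCp than in pOC, as were the glycolysis genes below, with 4 macrophage markers (Adgre1, Cd14, C1qa and C1qb) called higher there and 0 in mOCd against pOC, and the part of these cells in the results was not tested.

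Promoter sequences are shown because the 9 genes were all higher in mature cells than in pOC. Many of them are also known targets of hypoxia-inducible factors, which recognise a core that can read ACGTG or GCGTG. Only the ACGTG form was counted here. RefSeq (GRCm38.p6) gave 15 windows of 250 bases before an annotated transcript start for all 10 genes, and ACGTG was sought on both strands, where it reads CACGT on the reverse. The palindrome CACGTG, a site of Myc and related factors, contains ACGTG and was counted as 1 place. At least 1 match lay in a window of 6 of the 10 genes, namely Slc2a1, Hk2, Aldoa, Pgk1, Pkm and Ldha, against 18.5% of all 27025 genes and 20.0% of 17491 protein-coding genes. By window the shares were 46.7% of 15 and 16.6% of 32851. Among the matching windows, 2 of Aldoa overlap and hold the same match. The 10 genes also had more windows per gene (15 for 10, against 32851 for 27025), which can raise their share by gene. CACGTG was found for Ldha alone among the 10 genes, a share of 10.0% against 6.86% of all genes. The 4 windows below are those of Slc2a1 and Pfkl, the genes with the highest ratios in mature cells, and of Pgk1 and Ldha, chosen among the 3 genes with more than 1 match in a window (Hk2, not printed, has matches at 226 and 52 bases); capitals mark the matches. Slc2a1 is from chr4:119108495-119108744 (plus strand), Pfkl from chr10:78009808-78010057 (minus strand), Pgk1 from chrX:106186850-106187099 (plus strand) and Ldha from chr7:46845554-46845803 (plus strand, 1 of its 2 annotated starts).
Slc2a1: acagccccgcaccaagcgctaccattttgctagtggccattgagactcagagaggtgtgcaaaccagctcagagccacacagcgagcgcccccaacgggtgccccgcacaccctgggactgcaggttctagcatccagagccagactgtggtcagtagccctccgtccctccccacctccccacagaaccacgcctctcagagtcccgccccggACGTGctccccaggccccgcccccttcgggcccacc
Pfkl: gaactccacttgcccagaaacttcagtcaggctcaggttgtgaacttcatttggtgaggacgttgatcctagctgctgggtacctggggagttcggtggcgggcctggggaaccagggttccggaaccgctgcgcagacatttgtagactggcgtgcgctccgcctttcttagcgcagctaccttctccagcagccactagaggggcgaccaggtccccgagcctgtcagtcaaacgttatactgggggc
Pgk1: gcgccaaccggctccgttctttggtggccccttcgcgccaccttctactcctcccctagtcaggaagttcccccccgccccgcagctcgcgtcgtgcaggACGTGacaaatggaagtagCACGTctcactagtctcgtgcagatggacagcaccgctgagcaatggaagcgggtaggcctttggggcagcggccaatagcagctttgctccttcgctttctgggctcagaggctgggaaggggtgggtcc
Ldha: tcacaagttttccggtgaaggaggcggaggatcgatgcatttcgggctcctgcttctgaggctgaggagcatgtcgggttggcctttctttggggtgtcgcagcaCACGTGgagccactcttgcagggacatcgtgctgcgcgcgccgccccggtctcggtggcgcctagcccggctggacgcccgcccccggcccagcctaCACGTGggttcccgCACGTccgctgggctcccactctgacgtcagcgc
The Slc2a1 match begins 36 bases before the start. Pgk1 has 2 matches, at 150 and 131 bases, and Ldha has 3, at 145, 48 and 34 bases. The Pfkl window has no ACGTG, nor do those of Hk1, Pfkp and Gpi1. Pfkl, with the highest ratio of mOCp to pOC among the 9 genes, and Slc2a1, the next highest, thus differ in ACGTG. The printed Pfkl window does hold GCGTG, which was not counted, so this does not show that Pfkl lacks the core. A match is a stretch of letters and not a measured binding site.

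Between macrophages and pre-osteoclasts the 9 genes differed little and in both directions. None was called in pOC against BMM, against a background of 11.1% of 7256 eligible genes called higher and 13.2% called lower. The log2 ratios ran from -0.54 for Pfkp to 0.84 for Ldha, with 7 above zero, and their median of 0.25 compares with 0.05 over all eligible genes. That median turned to -0.07 after cyclic loess normalization, and the signs of Slc2a1, Hk2, Aldoa, Pgk1 and Pkm depended on the scaling or the probe set.

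The difference came with maturation. In mOCp all 9 genes had higher intensity than in pOC, and 4 were called higher (Slc2a1, Hk2, Pfkl and Pfkp) and 0 lower, where the background was 8.80% of 7192 eligible genes higher and 11.4% lower. The median ratio was 1.90-fold (log2 0.92), against a log2 median of -0.03 over all eligible genes. At a threshold of 1.5-fold, 8 of the 9 were higher, with a background of 19.8%. In mOCd against pOC all 9 were again higher and the same 4 genes were called higher and 0 lower, with a background of 10.8% of 7230 higher and 12.3% lower. The median there was 1.77-fold (log2 0.83, all eligible genes -0.01), and 8 of 9 passed 1.5-fold, with a background of 22.2%. These comparisons share the pOC array, so a low reading on that array would enter both. All 9 log2 ratios of each comparison stayed above zero under the 4 other scalings tried. Scaling to the hybridisation spike-in controls, which were brighter by 0.41 (log2) in mOCp than in pOC and by 0.28 in mOCd, lowered the mOCp median to 0.51 and the called genes to 2, Slc2a1 and Pfkl, and moved the median of all eligible genes by -0.43. The background fell with it: under that scaling 294 of 7088 eligible genes were called higher in mOCp against pOC and 1602 lower.

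**Figure D1:**
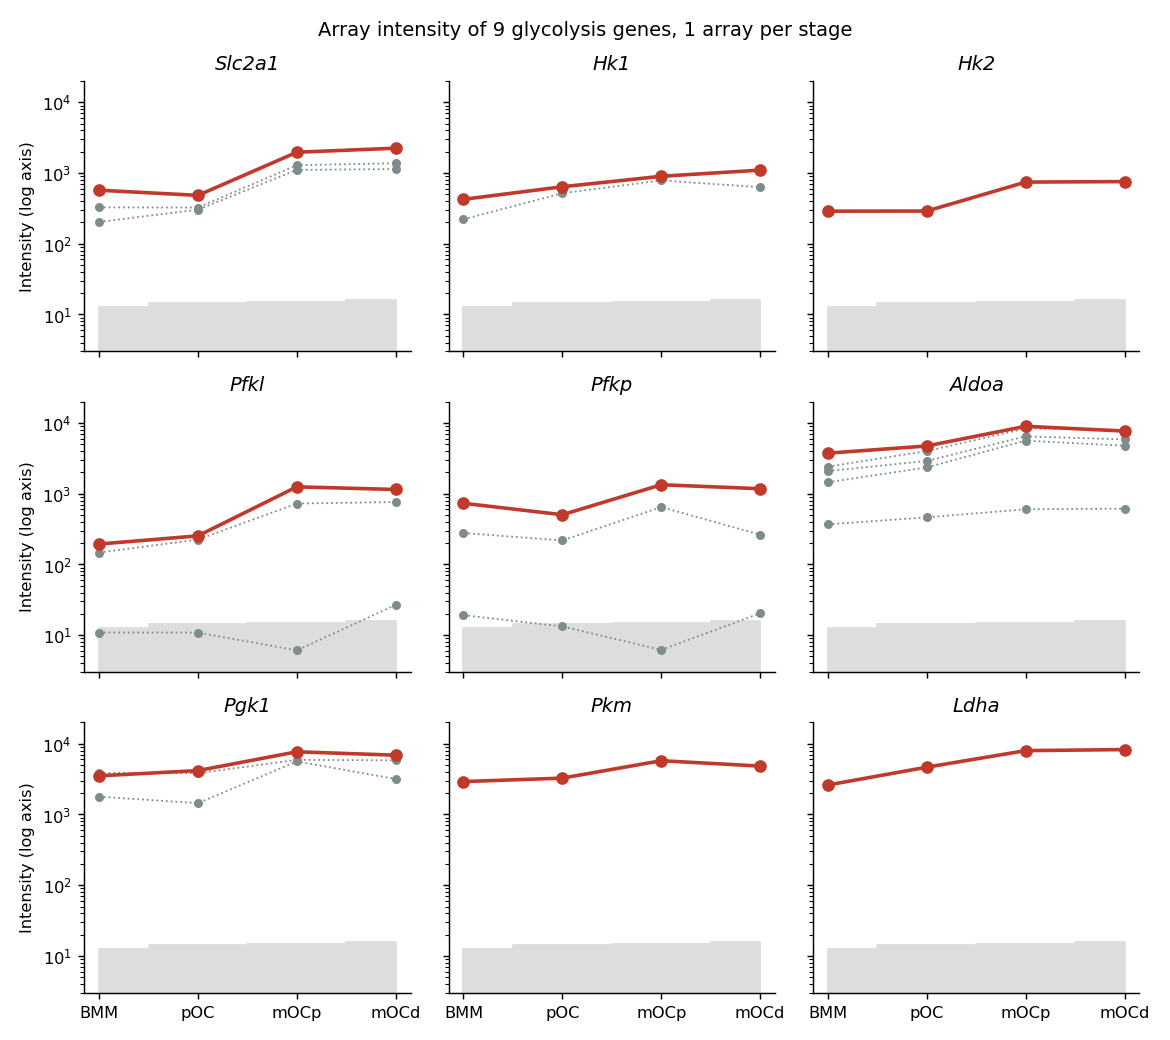
Intensity (log axis, deposited linear units scaled per array) of the 9 measured genes on the BMM, pOC, mOCp and mOCd arrays, 1 array each. Red points and lines are the probe set that stands for the gene, gray dotted lines its other probe sets, and gray blocks the floor of each array (12.7 to 15.8); in each panel the red values of mOCp and mOCd lie above that of pOC.

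Slc2a1 encodes GLUT1, the facilitated transporter that supplies basal glucose uptake in many cells. Its intensity was 571.7 in BMM and 483.5 in pOC, then 1969.6 in mOCp and 2246.0 in mOCd. The mature arrays stood well above both early ones, by 4.07-fold in mOCp and 4.65-fold in mOCd over pOC, and the ratio of mOCp to pOC ranked 117 among 7192 eligible genes. Its other 2 probe sets gave 3.97-fold and 3.65-fold in mOCp, and 4.23-fold and 3.75-fold in mOCd. They parted on the first step, where the 3 log2 ratios of pOC to BMM were -0.24, -0.01 and 0.58.

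Hexokinase phosphorylates glucose once it is inside. Hk1, the form of most tissues, which binds the outer mitochondrial membrane, had an intensity of 425.0 in BMM and 640.2 in pOC, then 899.9 in mOCp and 1100.1 in mOCd. It was higher on each array in turn by less than 2-fold, with log2 ratios of 0.59 in pOC against BMM, 0.49 in mOCp and 0.78 in mOCd against pOC. A second Hk1 probe set gave 1.22, 0.60 and 0.29, so the share of the difference that came before pOC varied between them. Hk2, the inducible form also found on mitochondria, had 289.0 in BMM and 290.1 in pOC, then 744.9 in mOCp and 757.1 in mOCd. Unlike Hk1 it read almost alike in BMM and pOC, and it was 2.57-fold higher in mOCp and 2.61-fold in mOCd than in pOC. Hk2 had 1 probe set, so no second reading exists, and its mOCp log2 ratio of 1.36 became 0.95 under spike-in scaling. The difference between the isoforms was not tested. Hk3, a form of white blood cells outside the list of 9, had 764.8 in BMM and 240.8 in pOC, then 214.1 in mOCp and 115.9 in mOCd, and was called lower in pOC (3.18-fold) and lower again in mOCd against pOC (2.08-fold).

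Phosphofructokinase adds the second phosphate and is the main point of control of the pathway. Pfkl, the liver-type subunit, had 194.6 in BMM and 253.9 in pOC, then 1253.8 in mOCp and 1149.6 in mOCd. Its 4.94-fold ratio of mOCp to pOC was the highest among the 9 genes and ranked 81 of 7192, and in mOCd the ratio was 4.53-fold. A second Pfkl probe set gave 3.24-fold and 3.40-fold. The remaining one lay under the floor on 3 of 4 arrays and bears on neither value. Pfkp, the platelet-type subunit, had 733.7 in BMM and 505.1 in pOC, then 1342.3 in mOCp and 1178.1 in mOCd. It was lower in pOC than in BMM by 1.45-fold, and higher than pOC by 2.66-fold in mOCp and 2.33-fold in mOCd. Its second probe set agreed for mOCp (2.96-fold) but read 218.7 in pOC and 264.1 in mOCd, a ratio of 1.21-fold, so the mOCd difference of Pfkp rests on 1 probe set. The muscle-type subunit Pfkm, at 78.4, 96.8, 156.1 and 165.0 in the same order of arrays, was called in none of the comparisons with pOC.

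**Figure D2:**
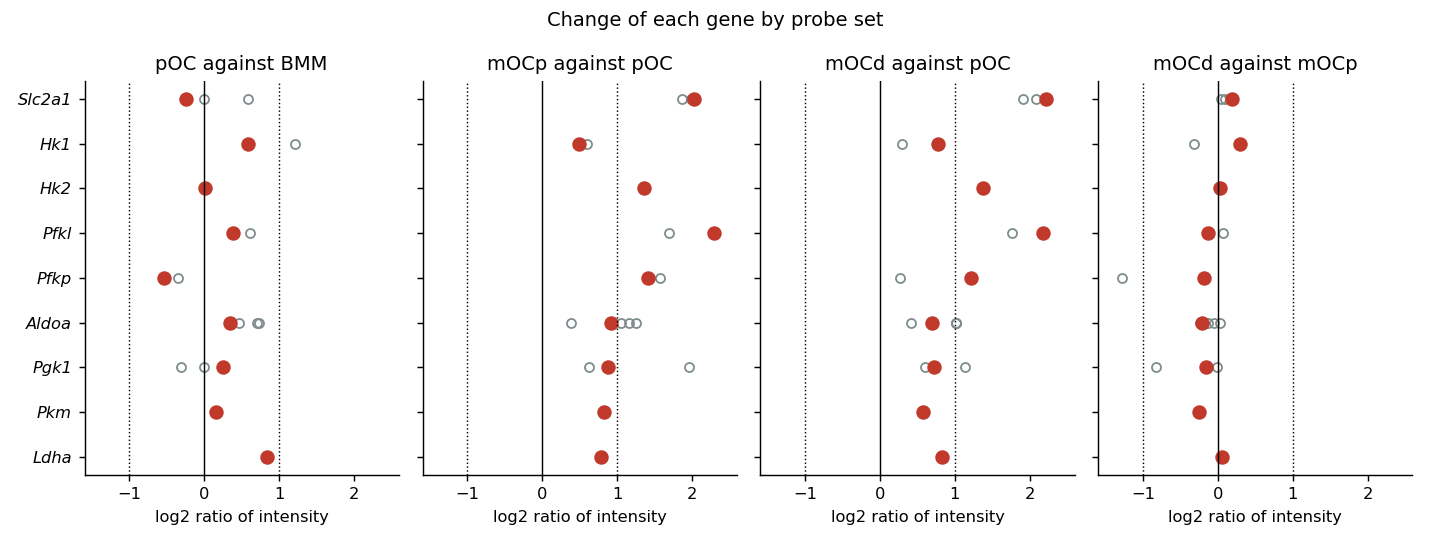
Log2 ratio of intensity for each of the 9 genes in 4 comparisons, with red points for the probe set that stands for the gene, open gray points for its other probe sets above the floor on all arrays, and dotted lines at 2-fold in either direction. The red points spread on both sides of 0 in pOC against BMM, all lie to the right of 0 in mOCp and mOCd against pOC, and lie between -0.25 and 0.29 in mOCd against mOCp.

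Aldolase splits fructose bisphosphate, and Aldoa is the form of muscle and most other cells. Its intensity was 3750.8 in BMM and 4739.1 in pOC, then 8995.5 in mOCp and 7701.7 in mOCd, a ratio over pOC of 1.90-fold in mOCp and 1.63-fold in mOCd. Of its 4 other probe sets, 3 gave 2.09-fold to 2.39-fold in mOCp and 2.01-fold to 2.03-fold in mOCd, just past the threshold that the brightest one missed, and the dimmest gave 1.30-fold and 1.33-fold. All 5 are of a type that can bind similar sequences from other transcripts, so the reading of Aldoa is uncertain to that extent. Pgk1, which makes the first ATP of the pathway, had 3523.8 in BMM and 4176.1 in pOC, then 7705.8 in mOCp and 6894.8 in mOCd, or 1.85-fold and 1.65-fold over pOC. Its 2 other probe sets, of the same less specific type, gave 1.54-fold and 3.89-fold in mOCp and 1.52-fold and 2.20-fold in mOCd.

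Pkm encodes pyruvate kinase, which makes the last ATP, and its 1 probe set does not tell its M1 and M2 splice forms apart. Its intensity was 2919.9 in BMM and 3268.8 in pOC, then 5761.0 in mOCp and 4838.5 in mOCd, or 1.76-fold and 1.48-fold over pOC. Ldha, the lactate dehydrogenase subunit that favours lactate formation, had 2613.8 in BMM and 4664.9 in pOC, then 8003.4 in mOCp and 8278.4 in mOCd. It had the highest ratio of the 9 between BMM and pOC, 1.78-fold, and a like ratio from pOC to mOCp, 1.72-fold, and to mOCd, 1.77-fold. On the mOCp array Aldoa, Ldha, Pgk1 and Pkm reached 77.1%, 68.6%, 66.0% and 49.4% of the brightest probe set, and Slc2a1, Hk2, Pfkl and Pfkp 16.9%, 6.38%, 10.7% and 11.5%. The first 4 were under 2-fold from pOC to mOCp and the other 4 over it, though Hk1, at 7.71%, was under it too; whether bright spots read compressed ratios was not tested.

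The surface made no called difference among these genes. In mOCd against mOCp 0 of the 9 were called in either direction, where the background was 2.15% of 6915 eligible genes higher and 2.55% lower. The log2 ratios ran from -0.25 for Pkm to 0.29 for Hk1, a range inside the probe set disagreement of 0.42, with a median of -0.13 against 0.01 over all eligible genes. That median was between -0.22 and 0.02 under the alternatives tried. A second Pfkp probe set, by contrast, was 2.45-fold lower in mOCd (264.1) than in mOCp (647.7). At 1 array a side this does not show that resorbing and non-resorbing cells are alike.

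Over the whole course from BMM, 7 of the 9 genes were called higher in mOCp and 0 lower, with a background of 16.9% of 7459 eligible genes higher and 19.4% lower. In mOCd 6 were called higher and 0 lower, with a background of 18.8% of 7537 higher and 20.3% lower. Pfkl had the highest ratio, 6.44-fold in mOCp and 5.91-fold in mOCd, then Slc2a1 at 3.45-fold and 3.93-fold and Ldha at 3.06-fold and 3.17-fold. Pfkp and Pkm stayed under 2-fold in both, and Pgk1 in mOCd (1.96-fold). These ratios use the same arrays as the comparisons above. Counting the 11 other probe sets of the 9 genes that lay above the floor on all arrays, 11 were higher in mOCp than in pOC, 8 of them at least 2-fold, and 11 were higher in mOCd than in pOC, 7 of them at least 2-fold. These are not independent readings, as 4 of the 11 are of Aldoa and 2 of Pgk1, all of the less specific type. No share over all probe sets was computed for these counts.

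Around these 9 genes, the isoforms of the same steps differed widely. Where no other scaling is named, the list counts that follow are read against the shares already given over all eligible genes. These were 11.1% higher and 13.2% lower in pOC against BMM, and 8.80% and 11.4% in mOCp against pOC. For mOCd against pOC they were 10.8% and 12.3%. List counts under another scaling have a background of their own. With spike-in scaling, mOCp against pOC had 294 higher calls and 1602 lower calls out of 7088. The same scaling gave mOCd against pOC 494 and 1420 out of 7183. Of 18 further glycolytic genes listed, 14 were named on the arrays and 6 were eligible in mOCp against pOC, of which 3 were called higher and 0 lower (median log2 0.98). That count of 3 held under none of the 4 other scalings, which gave 2 or, with spike-in scaling, 1. In mOCd against pOC 2 were called higher and 1 lower of 6 (median 0.80), and in pOC against BMM 1 higher and 2 lower of 7 (median 0.30). Aldoc, the brain-type aldolase, had 169.5 in BMM and 100.0 in pOC, then 836.7 in mOCp and 1011.9 in mOCd, so it was 8.37-fold and 10.1-fold above pOC in the mature cells. Tpi1, which interconverts the triose phosphates, had 2039.8, 3045.5, 6213.9 and 5191.1, or 2.04-fold over pOC in mOCp and 1.70-fold in mOCd. Ldhb, the subunit that favours pyruvate formation, had 45.2, 254.8, 574.6 and 936.7 and was called higher at each step, by 5.64-fold in pOC over BMM and 2.26-fold and 3.68-fold in mOCp and mOCd over pOC. Ldha and Ldhb, which form the same tetramer, thus were both higher in mature cells. Bpgm, which makes 2,3-bisphosphoglycerate, was 2.42-fold lower in pOC (39.8) than in BMM (96.2).

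**Figure D3:**
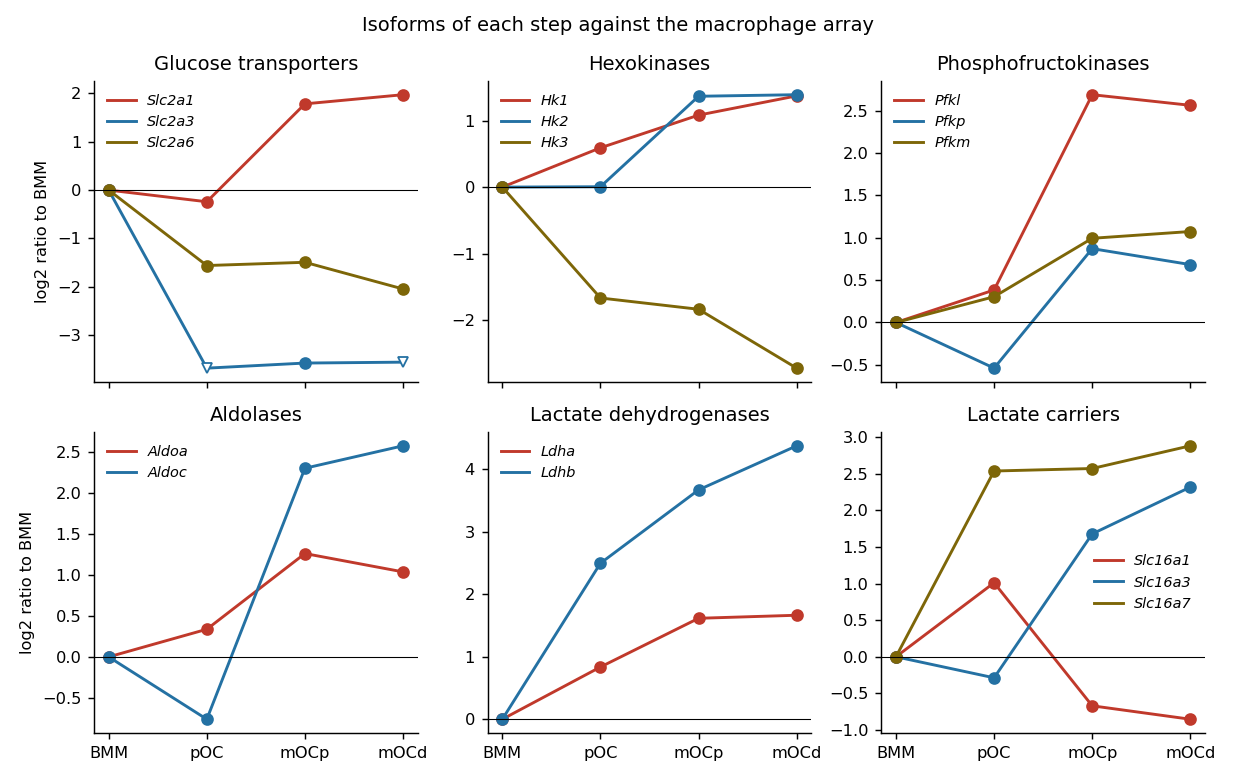
Log2 ratio to the BMM array for isoforms of 6 steps (transporters, hexokinases, phosphofructokinases, aldolases, lactate dehydrogenases and lactate carriers) on the 4 arrays, with a vertical scale of its own in each panel. Open triangles mark values at the floor, where the ratio is a bound; Slc2a1, Hk2 and Pfkl lie higher in mOCp and mOCd than in pOC, while Hk3, Slc2a3 and Slc2a6 lie below BMM on every later array.

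No other gene listed with the hexose transporters was called higher in mature cells over pOC, but few were bright enough to compare. Of 12 listed, 4 were eligible in pOC against BMM, with 1 called higher and 2 lower, and 0 of 3 were called in mOCp or in mOCd against pOC. Those 3 were Slc2a8 and the sugar phosphate exchangers Slc37a2 and Slc37a4. Slc2a8, the only Slc2a gene among them, was dim, at 101.5 in mOCp and 81.1 in mOCd, against call levels of 77.8 and 79.1. Slc2a3, the high-affinity neuronal-type transporter GLUT3, had 186.6 in BMM and 12.9 in pOC, then 15.6 in mOCp and 2.9 in mOCd, at least 12.9-fold lower in pOC. Slc2a6, of lysosomal membranes, was 2.95-fold lower in pOC (31.5) than in BMM (93.0). Slc37a2, a sugar phosphate exchanger, had 658.4, 3796.2, 5421.6 and 5976.6 and was 5.77-fold higher in pOC than in BMM, so its difference came a step before that of Slc2a1.

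Genes that set the flux were mixed. Of 17 listed, 8 were eligible in mOCp against pOC with 3 called higher and 0 lower (median 0.56), and 9 in mOCd against pOC with 4 higher and 1 lower (median 0.51), while 0 of 7 were called in pOC against BMM. For pOC against BMM, median scaling, quantile normalization and cyclic loess each gave 1 lower of 7. Spike-in scaling gave 3 higher and 2 lower in mOCp against pOC, with a median of 0.15. Pdk1, a kinase that shuts pyruvate dehydrogenase, had 350.0 in BMM and 280.5 in pOC, then 1190.3 in mOCp and 1250.0 in mOCd, or 4.24-fold and 4.46-fold over pOC, and its other 2 probe sets were higher as well, by log2 2.39 to 3.29 in mOCp and 2.40 to 3.63 in mOCd. Pfkfb3, which makes the activator of phosphofructokinase, had 67.7, 23.0, 116.2 and 158.9, or 5.05-fold and 6.91-fold over pOC. A second Pfkfb3 probe set gave log2 ratios of 1.42 in mOCp and -0.08 in mOCd, so its mOCd difference rests on 1 probe set. Pfkfb2 was also among the 4 called higher in mOCd against pOC, at log2 1.09. Its 3 other probe sets above the floor read from -0.79 to -0.17 there, so that call rests on 1 probe set too. Txnip, a brake on glucose uptake, had 894.1, 517.7, 2684.1 and 735.7: it was 5.18-fold higher in mOCp than in pOC and 3.65-fold lower in mOCd than in mOCp, the only gene of this list called between the 2 surfaces. Hif1a, the oxygen-regulated subunit of the hypoxia-inducible factor, had 1729.0, 954.8, 578.1 and 648.5 and was called neither in pOC against BMM nor in the mature cells against pOC, but was called lower over the whole course from BMM, by 2.99-fold in mOCp and 2.67-fold in mOCd. Its other 2 probe sets gave log2 ratios of -1.15 and -0.75 in pOC against BMM, -0.89 and -0.54 in mOCp against pOC and -1.86 and -0.50 in mOCd against pOC, all below zero and 2 of them past 2-fold. Myc had 465.1, 532.0, 303.7 and 224.0 and was 2.37-fold lower in mOCd than in pOC.

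Lactate leaves the cell through monocarboxylate carriers, and of 6 genes listed 5 were eligible in the mature comparisons, with 2 called higher and 1 lower in mOCp and the same counts in mOCd (medians 0.92 and 0.84). With spike-in scaling 1 was called higher and 1 lower in each. Slc16a1, the carrier MCT1, had 274.6 in BMM and 553.4 in pOC, then 172.6 in mOCp and 152.0 in mOCd, so it was 2.02-fold higher in pOC than in BMM and then 3.21-fold and 3.64-fold lower in mature cells. Slc16a3, the carrier MCT4 of strongly glycolytic cells, had 59.8, 49.0, 191.4 and 298.1 and was 3.91-fold and 6.08-fold higher in mature cells than in pOC. These 2 carriers thus ran in opposite directions after pOC. Slc16a7, another carrier, had 82.8, 480.6, 492.1 and 610.2. It was 5.80-fold higher in pOC than in BMM and was not called in mature cells against pOC. In pOC against BMM 3 of 4 eligible genes of this list were called higher and 0 lower (median 1.20), or 2 higher with median scaling. Emb, the partner protein embigin of such carriers, had 693.0, 1823.8, 4043.0 and 3958.8, and was called higher in pOC over BMM (2.63-fold) and in mOCp and mOCd over pOC (2.22-fold and 2.17-fold).

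Pyruvate entry into mitochondria differed at the earlier step. Of 8 genes listed, 6 were eligible in pOC against BMM and 5 were called higher (median 1.44), all of them parts of the pyruvate dehydrogenase complex, while 0 of 6 were called in mOCp or mOCd against pOC (medians 0.33 and 0.14, or -0.08 and -0.14 under spike-in scaling). With median scaling or cyclic loess, pOC against BMM had 4 called higher among the genes of this complex. Pdha1, its catalytic subunit, had 567.1 in BMM and 1463.0 in pOC, then 1919.1 in mOCp and 2245.2 in mOCd, and its partner Pdhb had 805.7, 3219.1, 5022.7 and 3743.7, with log2 ratios of pOC to BMM of 2.00 in this probe set and 0.35 in another. Dlat was 3.06-fold, Pdhx 2.83-fold and Dld 2.11-fold higher in pOC than in BMM. The 9 glycolysis genes had no call at that step, and these 5 had none at the later one; the difference between the lists was not tested.

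Side branches did not move as one. Of 10 pentose phosphate genes listed, 9 were eligible, and 0 were called higher and 1 lower in mOCp against pOC (median -0.33) and 1 higher and 3 lower in mOCd (median -0.03). Spike-in scaling gave 0 higher and 4 lower in mOCp, with a median of -0.74. Prps1, which makes the ribose donor for nucleotides, had 290.6 in BMM and 222.7 in pOC, then 44.9 in mOCp and 41.8 in mOCd. H6pd, an enzyme of the endoplasmic reticulum, had 111.4, 185.5, 110.8 and 473.1 and was 4.27-fold higher in mOCd than in mOCp. Of 11 genes of glycogen and glucose phosphate listed, 9 were eligible and 4 called higher and 0 lower in mOCp and in mOCd against pOC, with medians of 0.40 and -0.11; with spike-in scaling 3 and 2 were called higher, with medians of -0.01 and -0.39. The 4 were Pygl, a glycogen phosphorylase (5.59-fold in mOCp and 4.78-fold in mOCd), Gys1, a glycogen synthase (3.00-fold and 4.13-fold, with a second probe set at log2 0.66 and 0.59), Gbe1, the branching enzyme (3.36-fold and 2.21-fold), and Pgm1, a phosphoglucomutase (2.62-fold and 2.26-fold). Other enzymes of the list were not called in these comparisons, among them Gyg, the glycogenin primer (log2 -0.05 in mOCp and -0.26 in mOCd), and Pygb, another phosphorylase (-0.37 and -0.27).

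Hypoxia response genes that are not part of glycolysis were higher in the same samples. Of 17 listed, 13 were eligible in mOCp against pOC with 11 called higher and 0 lower (median 2.28), and 14 in mOCd with 12 higher and 0 lower (median 2.18). In pOC against BMM 1 of 8 was called higher (median 0.38). The eligible genes were not the same in each comparison, so these medians and counts are not over one set. Vegfa, Ndrg1, Egln3, Ankrd37 and P4ha2 were too dim in BMM and pOC, and were eligible only through the mature arrays where they are high. The summed intensity of the hypoxia list was 2318.5 in BMM and 3551.2 in pOC, then 13178.5 in mOCp and 13038.2 in mOCd. Bnip3, which marks mitochondria for removal, had 202.9, 258.9, 3637.7 and 3884.1, and Ero1a, an oxidase of protein folding, 300.7, 444.1, 2856.6 and 1828.6. Genes of the cell cycle, of mitosis and also of DNA replication (such as Mcm3, Mcm5 and Rrm2), went the other way. Of these, 14 of 14 eligible genes were called lower in mOCp and 14 of 14 in mOCd against pOC. Their summed intensities were 14796.3, 11029.2, 2221.2 and 2057.2. The part of the hypoxia response or of lower cell cycle gene levels in the glycolysis values was not tested. None of the list genes called in a comparison turned direction under the 4 other scalings.

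**Figure D4:**
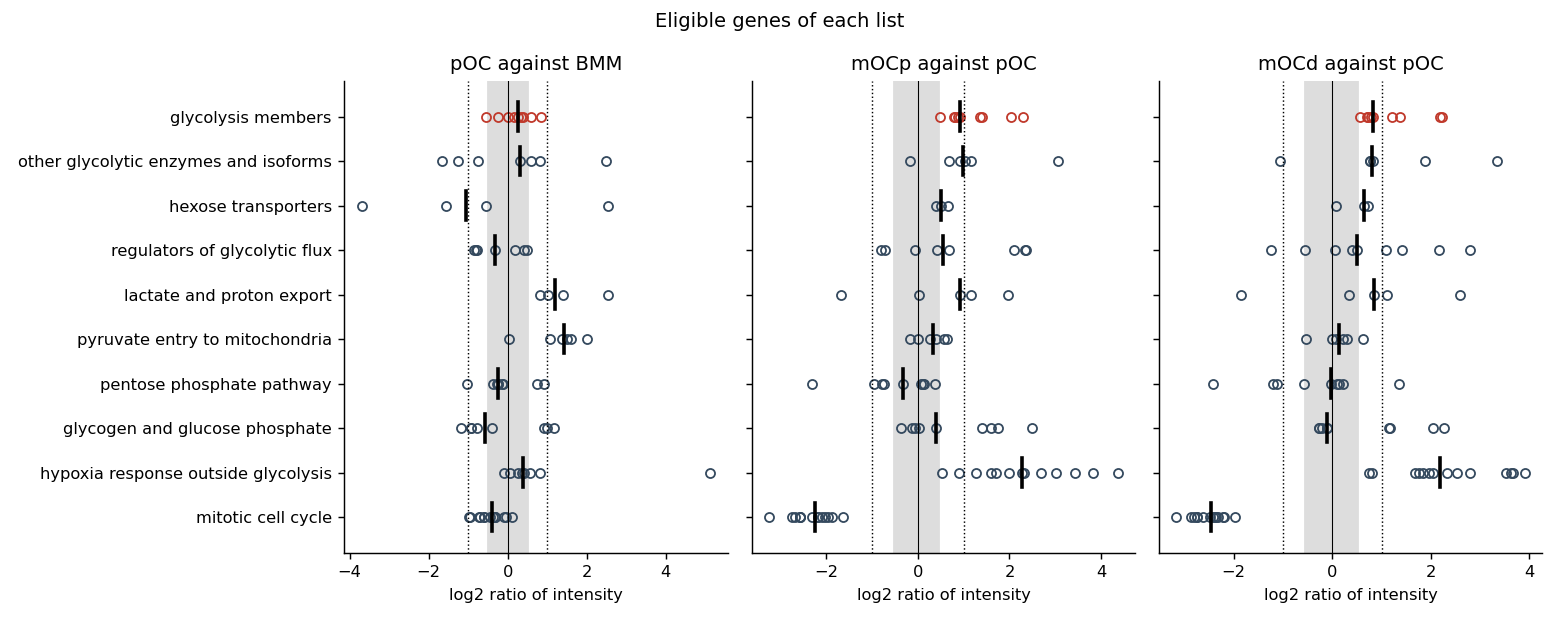
Log2 ratio of intensity of each eligible gene (open circles; red for the glycolysis genes) in 10 gene lists for pOC against BMM, mOCp against pOC and mOCd against pOC, with the list median as a black bar, dotted lines at 2-fold and gray bands from the lower to the upper quartile of all eligible genes. The glycolysis median lies at 0.25, 0.92 and 0.83 in the 3 panels. That of hypoxia response genes lies at 0.38, 2.28 and 2.18, and that of cell cycle genes (labelled mitotic cell cycle) at -0.41, -2.25 and -2.45. Each median covers the genes eligible in that panel, which for the hypoxia list differ between panels.

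The genes whose course was most like that of Slc2a1 were sought by the Euclidean distance over the 4 log2 intensities after each gene's own mean was taken off, among 7480 genes above the floor on all 4 arrays. The nearest were Pdk1 and Cgnl1 (distance 0.11 each), Rab2b (0.14), Tsc22d3 (0.20) and Malat1 (0.24). Nearest to the median course of the 9 genes were Gaa (0.11), Rab4a (0.12), Atox1, Ddhd1 and Tmem135 (0.13 each). From that median course the 9 genes themselves lay at 0.23 (Aldoa) to 1.32 (Pfkl), with Slc2a1 at 0.99, so these 2 genes stood furthest from the rest. With 4 arrays a short distance says only that the 4 values run alike.

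Gapdh, the dehydrogenase step of the pathway, was read through the manufacturer's control probe sets only. Its 3′ probe set gave 4699.9 in BMM and 6642.0 in pOC, then 8767.0 in mOCp and 7203.8 in mOCd. Its log2 ratios were 0.50 in pOC over BMM, 0.40 in mOCp over pOC and 0.12 in mOCd over pOC, and the 5′ set gave 0.44, 0.33 and 0.09. In the mature comparisons these ratios lay under the lowest of the 9 genes, 0.49 for Hk1 in mOCp and 0.57 for Pkm in mOCd. As a measure of RNA quality, the log2 ratio of 3′ to 5′ signal lay between -0.43 and -0.29 for Gapdh and between 0.16 and 0.29 for beta-actin over the 4 arrays, but that of the transferrin receptor control was 1.70 in mOCd against 0.84 to 1.01 on the other arrays. The part of RNA quality in the mOCd values was not tested.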

How the data were processed

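The 4 arrays of mouse BMM, pOC, mOCp and mOCd were used, 1 per group. The authors deposited linear signal intensities made with MAS5, per the submitters' processing notes, which give no version here; per the values, each array had been scaled to a trimmed mean of 100.0. Of 45101 probe sets, 64 were controls, 34945 carried 1 symbol in a platform annotation of 2016, 932 carried several and 9160 were unnamed here. Each of 18193 genes was read from its brightest probe set by mean log2 over the 4 arrays. Values under an array's 50th percentile were set to it, and a call needed a 2-fold ratio and a brighter value at the 75th percentile or above. Medians of gene lists cover genes eligible by that level. With 1 array per group no test was run, the number of arrays limits the precision, and counts of called genes are read against the same share over all eligible genes (no such share was computed for counts of additional probe sets). The disagreement between probe sets is the SD of the difference between the log2 ratios of a gene's 2 brightest probe sets, divided by the square root of 2. The genes, the 16 gene lists, the markers and the naming rule (the genes given, list genes, and the 5 nearest to Slc2a1 and to the median course) were chosen with earlier results of these data known. Promoter windows came from RefSeq (GRCm38.p6). Alternatives changed the floor, the scaling (median, quantile, cyclic loess, spike-in), the probe set, the fold and the level. Python 3.11.15, pandas 2.3.3, numpy 2.4.6 and, for cyclic loess only, limma 3.58.1 in R 4.3.3 were used. The scripts were tested on simulated data.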

Additional observations from a re-analysis of the deposited data

How the results depend on the processing

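Of 276 log2 ratios of single genes recomputed under the 8 alternatives of floor, scaling and probe set, 256 moved by less than the probe set disagreement, 20 moved by more and 0 called values changed sign. Under spike-in scaling 2 genes were called in mOCp against pOC with a median of 0.51, and 3 in mOCd against pOC. Counting from 1.5-fold gave 2, 8 and 8 genes higher in pOC against BMM, mOCp against pOC and mOCd against pOC. The median ran from -0.07 to 0.32, 0.51 to 1.12, 0.55 to 1.05 and -0.22 to 0.02 in the 4 comparisons. Without suffixed probe sets Pfkl was read from a probe set under the floor in both pOC (10.9) and mOCp (6.1). Its log2 value of 0.03 in mOCp against pOC is thus the ratio of the floors and no reading of Pfkl. Hk1, Aldoa and Ldha gave no value in that setting, so its medians, among them the 1.12 and 1.05 above, cover 6 genes. Over all eligible genes, spike-in scaling gave 294 higher and 1602 lower (15.5% higher of those called, 43.6% as reported) in mOCp against pOC, 494 and 1420 (25.8%, 46.8%) in mOCd against pOC, and 230 and 130 (63.9%, 45.8%) in mOCd against mOCp. Median scaling gave 589 and 1216 (32.6%, 45.8%) in pOC against BMM, 636 and 1090 (36.8%) in mOCd against pOC, and 108 and 230 (32.0%) in mOCd against mOCp. It shifted the median gene by -0.19 in pOC against BMM and -0.13 in mOCd against pOC, and spike-in scaling moved it by -0.43 in mOCp against pOC, by -0.29 in mOCd against pOC and by 0.13 between the mature arrays. With 1.5-fold the 4 comparisons had 1602 and 1615, 1421 and 1611, 1608 and 1741, and 634 and 526 genes higher and lower. With the level at the 50th percentile pOC against BMM had 1197 and 1299, and mOCd against mOCp 319 and 331. The causes of these moves were not tested. No paired analysis was possible because each group has 1 array, and for the same reason no replicate could be left out.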
